A study of Mus musculus with 6 samples.

Results

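The nuclear genes for the proteins of the mitochondrial ribosome were followed in an RNA immunoprecipitation of CPEB4 from mouse muscle stem cells. They were taken from the count table by symbol: every Mrpl (large subunit) or Mrps (small subunit) gene with a number, pseudogenes left out. This gave 78 genes of 55376 in the table, 49 of the large subunit and 29 of the small one. The cells were sorted by fluorescence from skeletal muscle of C57BL/6 mice aged 3 months. No treatment, genotype or allele is named for any group, so the groups differ, as far as the labels say, only in the RNA that was sequenced. There were 3 groups of 2 libraries: RNA precipitated with an antibody to CPEB4 (CPEB4 RIP), RNA precipitated with control immunoglobulin (IgG RIP), and the total RNA of the cells (input). All libraries were made with SMART-seq2, which copies polyadenylated RNA into full-length cDNA. Nothing says whether the 2 libraries of a group came from separate animals or from pools of them, so the p-values measure only the spread between these libraries, which may be technical.

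The mitochondrial ribosome translates the few messages that the mitochondrial genome encodes, all for proteins of oxidative phosphorylation. Its proteins are encoded in the nucleus, made in the cytosol and imported, and are joined in the organelle to rRNA from the mitochondrial genome. Many of them descend from bacterial ribosomal proteins, and the rest have been added in the course of mitochondrial evolution. CPEB4 is a cytoplasmic RNA-binding protein that recognises U-rich cytoplasmic polyadenylation elements in messages and takes part in the control of their poly(A) tails and translation. The comparison with IgG RIP asks which messages were recovered with CPEB4 beyond what an unspecific antibody recovers, and the comparison with input asks which were recovered beyond their abundance in the cells.

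The libraries held 9018323 to 20843042 counts assigned to genes. A test was made of the 18054 genes with enough counts, and 77 of the 78 mitochondrial ribosomal protein genes were among them, 48 of the large and 29 of the small subunit. The gene left untested, Mrpl53, had 1 read in all 6 libraries together. The other 77 had at least 10 counts in every library. Over these 77 genes the 2 CPEB4 RIP libraries were alike (Pearson's r of log2 CPM 0.992, median absolute difference 0.142 on the log2 scale), as were the input libraries (0.981 and 0.171). The 2 IgG RIP libraries were less so (0.893 and 0.357), and over all genes tested their r was 0.873 against 0.981 and 0.975 in the other groups. These correlations are across genes, which are not independent replicates.

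Start-site sequence is shown for 3 of the genes on which the results turn: Mrps24, which had the smallest p over IgG RIP, Mrpl52, which had the smallest p over input, and Mrps27, the gene that was lower in CPEB4 RIP. Each line gives the 300 bases from 250 before to 50 after the RefSeq start in GRCm38, 5′ to 3′ on the gene's strand, at chr11:5707652-5707951 (minus strand), chr13:99344536-99344835 (plus strand) and chr14:54426659-54426958 (plus strand). Capitals mark matches, on either strand, to the ETS-family word CCGGAAG or the YY1 word AAGATGGCG.
Mrps24 promoter: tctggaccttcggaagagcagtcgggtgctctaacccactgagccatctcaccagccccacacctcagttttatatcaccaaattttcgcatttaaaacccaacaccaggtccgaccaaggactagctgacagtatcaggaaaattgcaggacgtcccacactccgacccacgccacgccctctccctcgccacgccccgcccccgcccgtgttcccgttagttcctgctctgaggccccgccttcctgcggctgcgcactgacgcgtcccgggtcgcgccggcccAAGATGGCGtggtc
Mrps27 promoter: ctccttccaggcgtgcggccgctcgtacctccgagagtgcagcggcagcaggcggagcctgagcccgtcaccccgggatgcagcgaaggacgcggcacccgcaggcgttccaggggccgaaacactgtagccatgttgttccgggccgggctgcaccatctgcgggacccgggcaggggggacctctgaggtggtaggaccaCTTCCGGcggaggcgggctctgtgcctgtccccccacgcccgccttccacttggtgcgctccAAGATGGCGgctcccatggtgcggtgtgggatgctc
Mrpl52 promoter: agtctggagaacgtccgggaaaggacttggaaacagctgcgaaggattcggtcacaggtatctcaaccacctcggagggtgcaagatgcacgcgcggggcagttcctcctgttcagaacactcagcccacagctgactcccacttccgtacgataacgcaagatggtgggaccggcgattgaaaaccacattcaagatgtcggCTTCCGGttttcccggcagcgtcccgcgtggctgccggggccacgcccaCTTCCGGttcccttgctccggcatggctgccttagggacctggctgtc
Mrps24 carried the YY1 word downstream of its start, Mrps27 carried both words, and Mrpl52 carried the ETS word on each side of its start. RefSeq promoters were found for 69 of the 78 genes. Of these, 26 (37.7%) held the ETS word, against 9.93% of the 27025 mouse genes with such a window, and 8 (11.6%) held the YY1 word, against 1.64%. The NRF1 motif, searched in its palindromic form, was in 13 (18.8%), against 5.19%, while the CCAAT word was in 27 (39.1%), close to the 41.1% of all genes. The ETS word ends in the AAG with which the YY1 word begins, so the pair can overlap by these letters, and a match is a description of the letters only. By subunit, the ETS word was in 15 of 43 large-subunit and 11 of 26 small-subunit promoters, and the NRF1 motif in 10 and 3.

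Messages for mitochondrial ribosomal proteins took up a larger share of the counts in both CPEB4 RIP libraries than in any other library. The share was 0.371% and 0.387% with the CPEB4 antibody, 0.304% and 0.30% with IgG and 0.312% and 0.319% in the input. The means were 0.379% ± 0.0111 (SD, n = 2), 0.302% ± 0.00240 (SD, n = 2) and 0.315% ± 0.00449 (SD, n = 2). CPEB4 RIP stood above both other groups with no overlap, while IgG RIP and input lay within a narrow band. With 2 libraries against 2, the smallest p that a two-sided exact permutation test can give is 0.333, so these sums were not tested. Each subunit had its largest share in CPEB4 RIP. Large-subunit messages made up 0.250% and 0.262% of counts with the CPEB4 antibody, 0.206% and 0.202% with IgG and 0.205% and 0.213% in the input. Small-subunit messages made up 0.122% and 0.125%, 0.0974% and 0.0983%, and 0.107% and 0.106%.

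**Figure D1:**
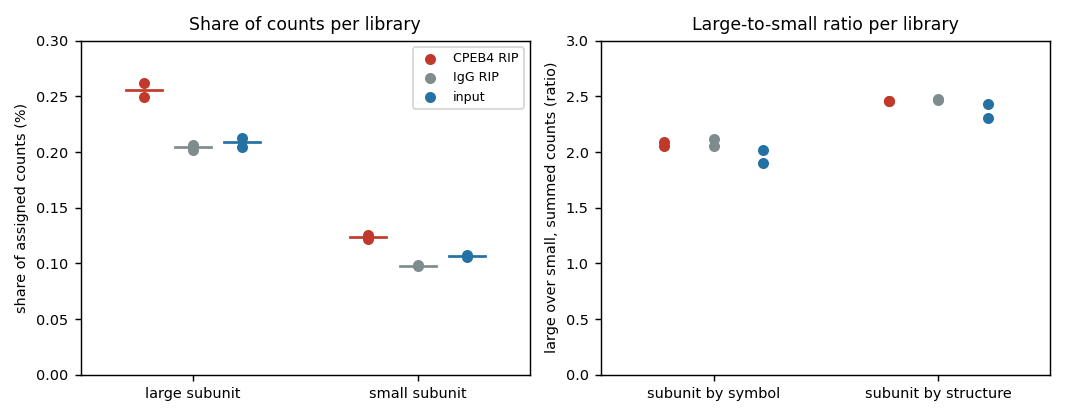
Share of assigned counts in large- and small-subunit messages (left, %) and the ratio of summed large- to small-subunit counts (right), one point per library, with lines at the mean of 2 libraries on the left. The CPEB4 RIP points lie above those of IgG RIP and input for both subunits, and the ratio by symbol lies between 1.9 and 2.12 in all 6 libraries.

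Against IgG RIP, 12 of the 77 genes tested were higher in CPEB4 RIP and 1 was lower (edgeR's quasi-likelihood test with Benjamini-Hochberg adjustment over all genes, adjusted p under 0.05). The 12 are 15.6% of those tested, against 4.79% of all genes tested that were higher, and the 1 is 1.3%, against 3.42% of all genes that were lower. The median log2 fold change of the 77 genes was 0.35 (quartiles 0.01 and 0.72), with 58 above 0, and that of all genes tested was -0.07. Both CPEB4 RIP libraries lay above both IgG RIP libraries for 46 of the 77 genes, or 59.7%, against 29.4% of all genes, and both lay below for 7, or 9.09%, against 25.5%. The spread within the group was wide, from -1.20 for Mrps27 to 1.66 for Mrps36, and most members did not pass the test singly.

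The number of calls changed widely when single libraries were left out. Each such fit leaves 1 library in a group, which is assumed to vary like the libraries of the other groups. Without the first or the second CPEB4 RIP library, the genes higher over IgG RIP numbered 1 (Mrps24) and 0 of 77, with 0.861% and 0% of all genes called. Without the first or the second IgG RIP library they numbered 40 and 37, with 23.6% and 18.5% of all genes called higher. A test scaled by a loess curve on gene length called 0 of all 18054 genes higher over IgG RIP. The median of the members was then 0.25 and that of all genes -0.10.

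Among large-subunit genes, 8 of 48 rose over IgG RIP (16.7%, against 4.79% of all genes) and the other 40 did not pass the test. Mrpl54, a protein that bacterial ribosomes lack (chr10:81264722-81266926 in GRCm38), was measured at 80.7 and 87.5 CPM (counts scaled by TMM to a common library size) with the CPEB4 antibody, 35.3 and 39.0 with IgG and 37.8 and 37.9 in the input. Both CPEB4 RIP libraries were far above the other 4, which lay close together. Its log2 fold change was 1.18 over IgG RIP (SE 0.17, adjusted p = 0.0129 by edgeR) and 1.15 over input (SE 0.17, adjusted p = 0.00705 by edgeR). Mrpl30, homologous to a bacterial large-subunit protein (chr1:37890477-37898338), stood at 94.9 and 107 CPM with the CPEB4 antibody, 36.4 and 54.3 with IgG and 47.3 and 48.4 in the input. The IgG RIP libraries differed from each other but both stayed under the CPEB4 RIP libraries, and the log2 fold changes were 1.15 (adjusted p = 0.0243 by edgeR) and 1.08 (0.0202). Mrpl13, another with a bacterial homolog (chr15:55534095-55557312), had 44.8 and 47.1 CPM with the CPEB4 antibody, 23.1 and 18.3 with IgG and 19.7 and 25.8 in the input. Here too the groups did not overlap, and the log2 fold changes were 1.15 (adjusted p = 0.0297 by edgeR) and 1.01 (0.0305).

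Mrpl33, a short protein with a bacterial homolog (chr5:31613951-31622644), overlaps Gm38424 in RefSeq. It had 142 and 158 CPM with the CPEB4 antibody, 71.5 and 86.8 with IgG and 65.4 and 82.5 in the input. The IgG RIP and input libraries overlapped, under both CPEB4 RIP libraries, with log2 fold changes of 0.92 over IgG RIP (adjusted p = 0.0303 by edgeR) and 1.02 over input (0.0146). Mrpl23, which in the ribosome sits by the exit of the peptide tunnel, had 132 and 145 CPM with the CPEB4 antibody, 86.5 and 70.7 with IgG and 82.5 and 92.9 in the input. Its fold changes were smaller, 0.82 (adjusted p = 0.0330 by edgeR) and 0.66 (0.0462). The other large-subunit genes that rose over IgG RIP, all close to the threshold, were Mrpl42 (log2 fold change 0.86), Mrpl55 (1.03) and Mrpl57 (0.82). The call of Mrpl55 was kept in 9 of 17 other settings, and that of Mrpl23 in 13 over IgG RIP and 8 over input.

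Of the small-subunit genes, 4 of 29 rose over IgG RIP (13.8%, against 4.79% of all genes) and 1 fell (3.45%, against 3.42%). Mrps24, the homolog of a bacterial protein at the entry of the mRNA channel (chr11:5703982-5707701, the promoter with the YY1 word downstream of the start), had 68.7 and 72.5 CPM with the CPEB4 antibody, 26 and 25.3 with IgG and 38.0 and 41.5 in the input. Each group was tight and the 3 groups were apart, with IgG RIP lowest. The change was 2.75-fold over IgG RIP (log2 1.46, SE 0.18, adjusted p = 0.00862 by edgeR) and 1.78-fold over input (log2 0.83, SE 0.18, adjusted p = 0.0228 by edgeR). Mrps15, also with a bacterial homolog (chr4:126046928-126055536), had 39.4 and 36.4 CPM with the CPEB4 antibody, 16.7 and 19.9 with IgG and 19.8 and 16.9 in the input. The 4 control libraries were interleaved, and the log2 fold changes were 1.05 (adjusted p = 0.0345 by edgeR) and 1.04 (0.0241). Mrps21, a short protein with a bacterial homolog (chr3:95862634-95871514), had 46.9 and 48.7 CPM with the CPEB4 antibody, 27.2 and 26.7 with IgG and 25.6 in both input libraries. Replicates agreed closely here, with log2 fold changes of 0.83 (adjusted p = 0.0392 by edgeR) and 0.90 (0.0206).

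Mrps27 was the one gene of the set called lower. It encodes a pentatricopeptide-repeat protein of the small subunit without a bacterial counterpart (chr13:99344767-99415562). Its level was 13.2 and 16.8 CPM with the CPEB4 antibody, 32.3 and 36.7 with IgG and 26.4 and 29.4 in the input. Both CPEB4 RIP libraries were below the other 4. The log2 fold change was -1.20 over IgG RIP (SE 0.23, adjusted p = 0.0245 by edgeR) and -0.89 over input (SE 0.23, adjusted p = 0.0440 by edgeR). The call was lost without either CPEB4 RIP library and, in both comparisons, without either input library. The gene overlaps 6430562O15Rik in RefSeq.

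**Figure D2:**
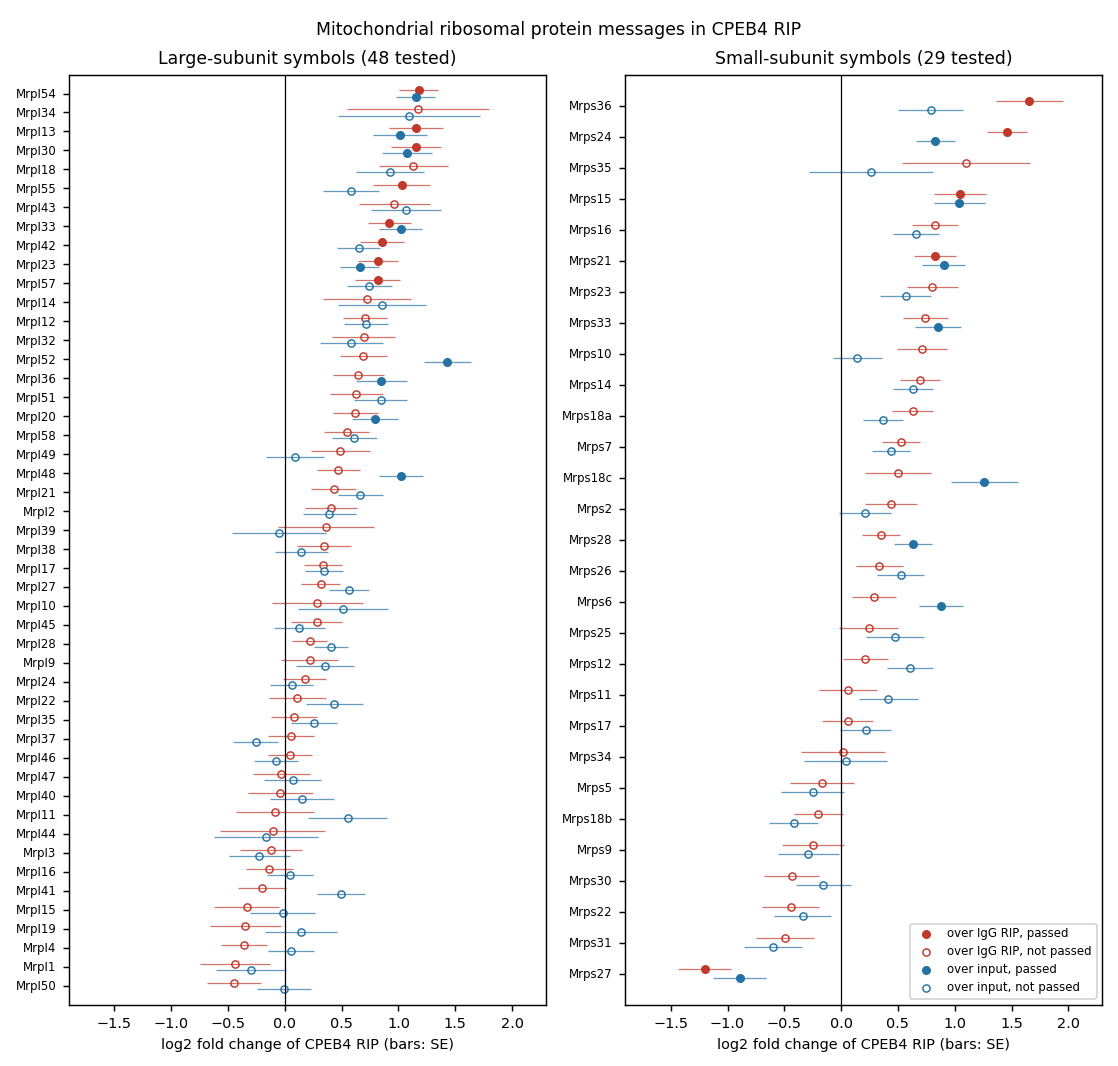
Log2 fold change of CPEB4 RIP over IgG RIP (red) and over input (blue) for the 48 large-subunit (left) and 29 small-subunit genes tested (right), with bars of 1 SE and filled points for adjusted p under 0.05. Most points lie right of 0 in both panels, from -1.20 for Mrps27 to 1.66 for Mrps36 over IgG RIP.

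Against input, 16 of the 77 genes were higher in CPEB4 RIP (20.8%, against 8% of all genes tested) and 1 was lower (1.3%, against 4.7%). This comparison uses the same CPEB4 RIP libraries as the one with IgG RIP, so the values stand side by side and are no second test. The median log2 fold change was 0.47, with 62 of 77 genes above 0, and that of all genes was -0.06. Both CPEB4 RIP libraries lay above both input libraries for 52 genes (67.5%, against 34.4% of all genes) and below for 9 (11.7%, against 37.6%). Without the first or second CPEB4 RIP library 3 and 0 genes were higher (2.34% and 0.439% of all genes). Without the first or second input library there were 1 (Mrpl52) and 4, which are 1.3% and 5.19% of the members against 1.73% and 2.45% of all genes. Without the first or second IgG RIP library there were 44 and 45, against 20.2% and 19.7% of all genes. With library size alone as the scaling 9 were higher (11.7%, against 6.05% of all genes). With the loess curve on gene length 3 were (Mrpl13, Mrpl48 and Mrpl52), a share of 3.9%, close to the 2.93% of all genes.

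Large-subunit genes accounted for 9 of the 16 and small-subunit genes for 7. Mrpl52, which bacterial ribosomes lack (chr14:54426909-54429750, the promoter with 2 ETS words), had 58.2 and 66.9 CPM with the CPEB4 antibody, 33.9 and 43.6 with IgG and 24 and 22.4 in the input. The groups formed 3 steps that did not overlap. The change was 2.70-fold over input (log2 1.43, SE 0.21, adjusted p = 0.00656 by edgeR), while the log2 value of 0.69 over IgG RIP did not pass (adjusted p = 0.0819 by edgeR). Mrpl48, a large-subunit protein with no bacterial counterpart, had 102 and 87.9 CPM with the CPEB4 antibody, 65.8 and 71.3 with IgG and 40.9 and 52.8 in the input. Its values fell in the same order of groups, with a log2 fold change of 1.02 over input (SE 0.19, adjusted p = 0.0153 by edgeR) and 0.47 over IgG RIP (0.166). The gene overlaps Rab6a and Cox20b. The rise of Mrps6, Mrps18c, Mrps28, Mrps33, Mrpl20 and Mrpl36 over input ranged from 0.63 (Mrps28) to 1.26 (Mrps18c) on the log2 scale. The call of Mrps28 was kept in 9 of 17 other settings.

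**Figure D3:**
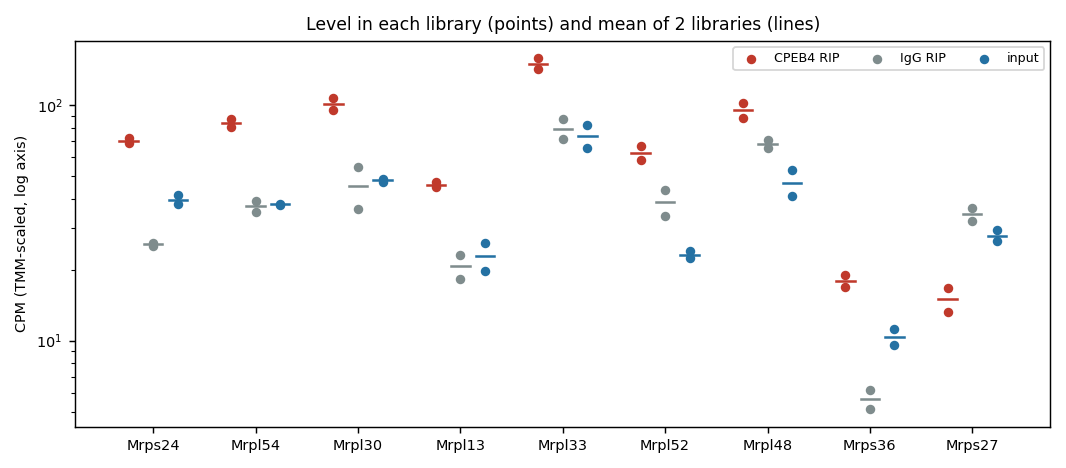
Level of 9 mitochondrial ribosomal protein messages in each library (TMM-scaled CPM, log axis), points for the 2 libraries of each group and lines for their mean. For 8 of the 9 genes both CPEB4 RIP points (red) are above those of IgG RIP and input, and for Mrps27 both are below, at 13.2 and 16.8 CPM.

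The medians of the large and small subunits were close. Over IgG RIP the median log2 fold change was 0.35 for the 48 large-subunit and 0.35 for the 29 small-subunit genes, with 16.7% and 13.8% of them higher. Over input the medians were 0.50 and 0.44, with 18.8% and 24.1% higher. Of all genes tested, 4.79% were higher over IgG RIP and 8% over input. The ratio of summed large- to small-subunit counts was 2.06 and 2.09 with the CPEB4 antibody, 2.12 and 2.05 with IgG and 1.9 and 2.02 in the input. The CPEB4 RIP and IgG RIP values of this ratio overlapped, and both CPEB4 RIP values were above both input values. The gap between the lower CPEB4 RIP value and the higher input value was smaller than the difference between the input libraries. Small-subunit genes had the wider range of change over IgG RIP, from -1.20 to 1.66, against -0.45 to 1.18 for the large subunit.

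For 3 genes the symbol and the known structure differ. Mrps18a and Mrps30 are proteins of the large subunit in the structure of the mammalian mitochondrial ribosome, and Mrps36 is a subunit of the 2-oxoglutarate dehydrogenase complex. Mrps36 had the highest log2 fold change of the set over IgG RIP, 1.66 (SE 0.30, adjusted p = 0.0204 by edgeR), at 19.0 and 16.9 CPM with the CPEB4 antibody, 5.12 and 6.19 with IgG and 9.57 and 11.2 in the input. All 3 groups were apart, and the value of 0.79 over input did not pass (adjusted p = 0.123 by edgeR). Neither of the other two passed. Mrps30 had 28.5 and 29.6 CPM with the CPEB4 antibody, 31.2 and 47.3 with IgG and 31.6 and 33.3 in the input, with log2 values of -0.44 and -0.16. Mrps18a had 0.63 over IgG RIP (adjusted p = 0.0716 by edgeR) and 0.37 over input. With the genes placed by structure, 8 of 50 large-subunit (16%) and 3 of 26 small-subunit genes (11.5%) rose over IgG RIP. Both had a median of 0.35, and 4.79% of all genes rose. Over input 9 (18%) and 7 (26.9%) rose, against 8% of all genes, with medians of 0.47 and 0.46.

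Genes were also split by descent, with the subunit taken from the symbol and Mrps18a, Mrps18b, Mrps28 and Mrps36 left out of the classes. The small-subunit genes without a bacterial counterpart had the lowest medians, with Mrps30, a large-subunit protein by structure, counted among them. Of these 10 genes, 1 (10%) fell over IgG RIP (median 0.13) and the others did not pass. Over input 1 (10%) rose and 1 (10%) fell (median 0.15). Of all genes tested, 4.79% rose and 3.42% fell over IgG RIP, and 8% rose and 4.7% fell over input. The 15 small-subunit genes with a bacterial homolog had 3 (20%) that rose over IgG RIP (median 0.50) and 5 (33.3%) over input (0.61). In the large subunit, 5 of 30 genes with a bacterial homolog (16.7%) rose over IgG RIP (median 0.33) and 6 (20%) over input (0.53). Of 18 without one, 3 (16.7%) rose in each comparison (medians of 0.42 and 0.32). The small-subunit genes without a bacterial counterpart had longer gene models than those with a homolog (medians of 3641 and 2172 bases). Their mean CPM was lower (medians of 22.4 and 33.4). Across small-subunit genes Spearman's rho between fold change and length was -0.328 over IgG RIP and -0.633 over input. Across large-subunit genes it was -0.203 and -0.251. The differences between these classes were not tested, nor was the part of length or level in them.

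Short gene models had higher values than long ones, in the set and in the whole table. Model lengths were recovered from the paired counts and FPKM values. The 26 shortest members (607 to 1667 bases) had a median log2 fold change of 0.67 over IgG RIP and 0.79 over input, where all 2354 genes tested in that range of lengths had 0.24 and 0.37. The 25 of middle length (1693 to 3291 bases) had 0.28 and 0.15, against -0.00 and 0.00 for all genes of such length, and the 26 longest (3332 to 8631 bases) had 0.29 and 0.26, against -0.13 and -0.19. Of the shortest, 19.2% rose over IgG RIP and 38.5% over input, against 10% and 14.7% of all genes of that length. In the middle class the shares were 12% and 8%, against 6.43% and 8.29%, so that over input it had no excess. In the longest class they were 15.4% in both, against 3.6% and 6.5%. The medians of the members were above those of all genes in each length class. Spearman's rho between fold change and length was -0.246 over IgG RIP and -0.387 over input across the 77 members, and -0.202 and -0.249 across all genes, as a description of points that share the same libraries. The median model length of the members was 2533 bases, and that of all genes tested 3841 bases. Mrps24 (1466 bases), Mrpl54 (825), Mrpl52 (1109) and Mrps36 (1274) were in the shortest class. Mrpl13 (7936), Mrpl33 (7326) and Mrpl48 (8152) were in the longest. The part of length in the results was not tested beyond the loess scaling above. Abundance differed as well. The median of the mean CPM was 34.2 for the members and 5.74 for all genes, and Spearman's rho between fold change and mean CPM was 0.177 over IgG RIP and 0.322 over input across all genes, against 0.111 and 0.186 across the members. Among the 13216 genes with a mean count of at least 20, the share called higher over IgG RIP was 20.8% of members against 7.49% of all genes, and over input 18.2% against 10.6%.

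**Figure D4:**
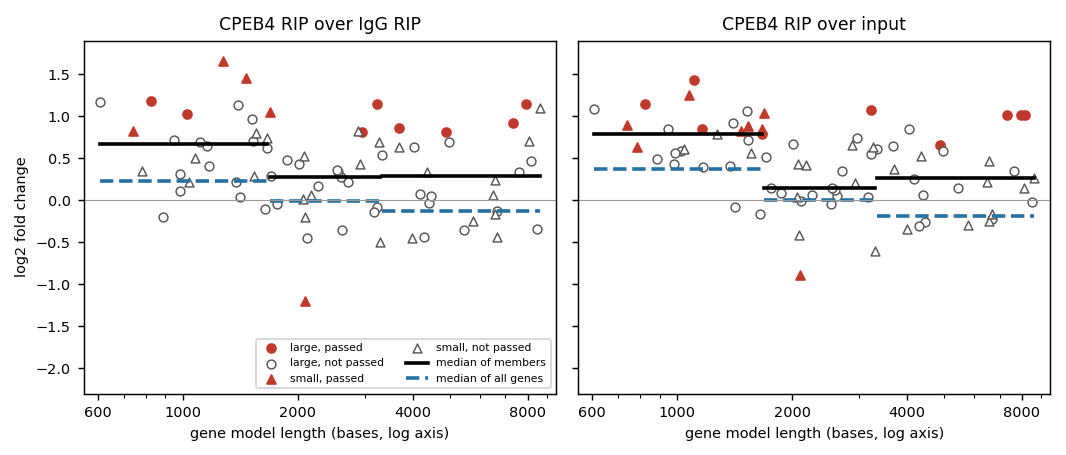
Log2 fold change of CPEB4 RIP over IgG RIP (left) and over input (right) against gene model length in bases (log axis), circles for large- and triangles for small-subunit genes, filled where adjusted p was under 0.05. The solid line, the median of the members in each length class, lies above the dashed line, the median of all genes tested in the same range of lengths, at 0.67 against 0.24 in the shortest class over IgG RIP.

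The control comparison, IgG RIP over input, called 0 of the 77 genes higher and 0 lower by edgeR, where 0% of all genes were called in each direction. At an unadjusted p under 0.05 there were 8 of 77, against 2550 of 18054 genes. DESeq2 called 1 higher and 1 lower, 1.3% each way, against 2.37% and 1.55% of all genes. The median log2 fold change was 0.07, against 0.05 for all genes, with 42 of the 77 above 0. Both IgG RIP libraries lay above both input libraries for 17 genes (22.1%, against 21.4% of all genes) and below for 12 (15.6%, against 20.7%). Large- and small-subunit medians were 0.10 and -0.01. Mrpl52 (0.74) and Mrps24 (-0.63) had the smallest p of the set, both with an adjusted p of 0.219 by edgeR.

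Translation factors, assembly genes and synthetase genes of the mitochondrion had medians below 0 in CPEB4 RIP. So had all genes tested, at -0.07 over IgG RIP and -0.06 over input. The median model lengths of these lists ran from 3693 to 5152 bases. All genes of 3332 to 8631 bases had medians of -0.13 and -0.19. Of 5 mitochondrial ribosome proteins with symbols outside the Mrpl and Mrps series, 1 rose over IgG RIP: Aurkaip1, a small-subunit protein, by 0.83 on the log2 scale (adjusted p = 0.0424 by edgeR). The medians of these 5 genes were 0.11 over IgG RIP and 0.30 over input. Ptcd3, a pentatricopeptide-repeat protein of the same subunit, fell by 1.6 against input (adjusted p = 0.00540 by edgeR), at 19.0 and 24.3 CPM in CPEB4 RIP and 58.5 and 72.9 in input, and stood at -0.78 over IgG RIP (adjusted p = 0.0689 by edgeR). Like Mrps27, it was lower in both CPEB4 RIP libraries than in the other 4. Of 17 translation factors, 0 passed in either direction over IgG RIP or input by edgeR, with medians of -0.10 and -0.29, and 3 of 17 had an unadjusted p under 0.05 in each comparison, against 4837 and 5070 of 18054 genes. Of 24 genes of ribosome assembly and rRNA modification, 1 fell over IgG RIP (4.17%, against 3.42% of all genes) and 3 over input (12.5%, against 4.7%). The medians of these 24 were -0.06 and -0.21. Nsun4, an rRNA methyltransferase, fell in both comparisons, with log2 fold changes of -1.11 (adjusted p = 0.0183 by edgeR) and -1.09 (0.0116). Of 21 genes for mitochondrial aminoacyl-tRNA synthetases and related enzymes, Lars2, the leucyl enzyme, alone passed. It was 4.76% of the list, against 4.79% of all genes higher over IgG RIP and 8% over input. Its log2 fold changes were 1.41 over IgG RIP (adjusted p = 0.0120 by edgeR) and 3.25 over input (0.00184). In IgG RIP over input Lars2 stood at 1.84 (adjusted p = 0.106 by edgeR), at 154 and 190 CPM against 54.8 and 41.1. The medians of that list were -0.22 and -0.39.

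The rRNAs of the mitochondrial ribosome itself were higher in CPEB4 RIP. The large-subunit rRNA, mt-Rnr2, had 5094 and 4332 CPM with the CPEB4 antibody, 477 and 864 with IgG and 794 and 1032 in the input. The small-subunit rRNA, mt-Rnr1, had 305 and 236, 32.9 and 64.8, and 42.7 and 58.3 CPM. In both cases the CPEB4 RIP libraries were several times above all others, with log2 fold changes over IgG RIP of 2.81 (adjusted p = 0.00719 by edgeR) for mt-Rnr2 and 2.46 (0.0104) for mt-Rnr1. These rRNAs have near copies in the nuclear genome, so their counts depend on how multiply mapped reads were treated, which no source used here states. With all mitochondrially encoded genes removed before scaling, 18 members were higher over IgG RIP (23.4%, against 6.18% of all genes) and 19 over input (24.7%, against 8.63%). The message of Cpeb4 itself had 16.5 and 14.9 CPM with the CPEB4 antibody, 11 and 30.7 with IgG and 13.2 and 13.6 in the input, and did not pass (-0.41, adjusted p = 0.578 by edgeR); it does not check the antibody, which acts on the protein.

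**Figure D5:**
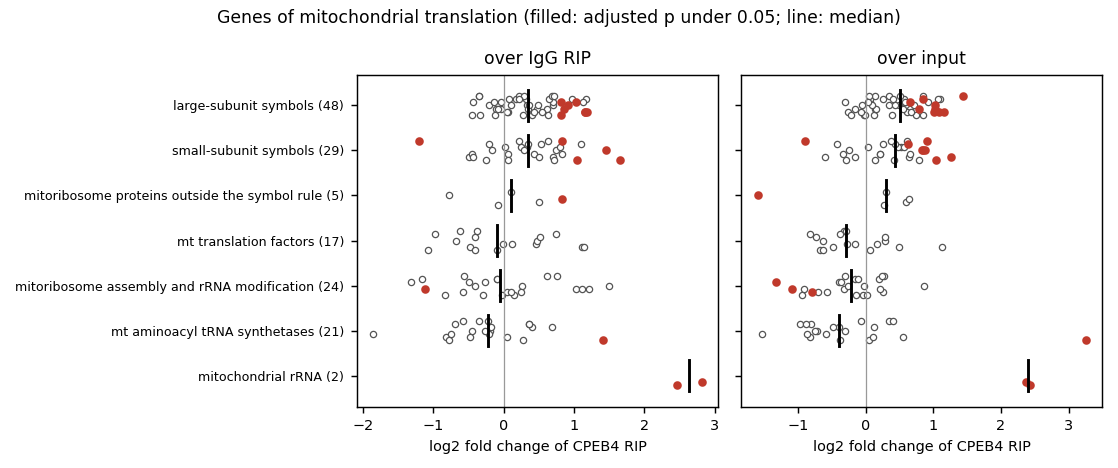
Log2 fold change of CPEB4 RIP over IgG RIP (left) and over input (right) for each tested gene in 7 lists of mitochondrial translation, filled where adjusted p was under 0.05, with a line at each list's median. The large- and small-subunit medians lie right of 0, at 0.35 and 0.35 over IgG RIP, those of translation factors, assembly and synthetase genes left of it. The median of all genes tested, not drawn, was -0.07 over IgG RIP and -0.06 over input. Both rRNAs lie far to the right, and over input the synthetase gene Lars2 lies farther still, at 3.25. In IgG RIP over input, not drawn, Lars2 stood at 1.84.

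Levels of the messages per gene length spanned a wide range in the cells. In input, the highest members by FPKM were Mrps28 (56.8 and 60.2), Mrpl50 (35.3 and 44.5), Mrpl28 (36.1 and 34.7), Mrpl54 (33.2 and 32.7) and Mrps7 (29.8 and 31.1). Of neighbours in that order, Mrpl50 and Mrpl28 overlapped in their input libraries and the other pairs did not. The lowest tested were Mrps35 (0.602 and 0.907), Mrps5 (1.45 and 1.39) and Mrps25 (1.59 and 2.10). Of the 5 highest, Mrpl54 rose in both comparisons and Mrps28 over input, and Mrpl50 had a log2 fold change of -0.45 over IgG RIP and -0.01 over input, neither passed. The median FPKM of large-subunit genes was 14.1 and 13.1 with the CPEB4 antibody, 7.32 and 9.12 with IgG and 8.79 and 10.3 in the input. That of small-subunit genes was 9.97 and 9.51, 6.44 and 8.14, and 7.83 and 7.11. For both subunits the CPEB4 RIP libraries had the highest medians.

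Markers of several cell types differed between the groups as well. The 12 markers of muscle stem cells, the labelled cell type, summed to 64357 to 70399 CPM with the CPEB4 antibody, 62797 to 64045 with IgG and 47775 to 49063 in the input, with none at 0. Most of that sum was Sdc4, at 57500 and 61956 CPM in the CPEB4 RIP libraries. Over input, 3 of the 12 (Sdc4, Des and Spry1) were higher and 3 (Vcam1, Calcr and Chodl) lower, and Vcam1 was lower over IgG RIP. Of the 6 erythroid markers, 3 of 5 tested were higher in both comparisons, and their sum was 328 to 658 CPM with the CPEB4 antibody, 88.0 to 147 with IgG and 109 to 179 in the input. The 7 fibro-adipogenic markers summed to 1591 to 1918, 939 to 1275 and 713 to 938 CPM in the same order, with 2 of 7 higher in each comparison, and the 10 myofibre markers to 222 to 282, 132 to 170 and 140 to 199, with 4 of 10 higher over IgG RIP and 3 over input. Endothelial markers (379 to 548, 280 to 397 and 313 to 347) and smooth muscle and pericyte markers (571 to 758, 637 to 1024 and 608 to 763) overlapped between CPEB4 RIP and IgG RIP, and the endothelial sums did not overlap between CPEB4 RIP and input. Of 7 endothelial markers, 1 (Fabp4) was higher over IgG RIP, and 2 (Fabp4 and Cdh5) were higher and 1 (Tek) lower over input. None of the 6 smooth muscle and pericyte markers passed in either comparison by edgeR, with 2 over IgG RIP and 1 over input at an unadjusted p under 0.05. The 10 leukocyte markers summed to 33.5 to 60.6, 25.6 to 31.6 and 24 to 25.9 CPM, with 1 of 7 tested, S100a8, higher. Only S100a8 and S100a9 had log2 fold changes above 0, and the other 5 tested were below 0 in both comparisons. The medians of the 7 were -1.10 over IgG RIP and -0.36 over input. Cd3e was at 0 in 1 CPEB4 RIP library, Itgam in 1 input and both IgG RIP libraries, and Adgre1, Cd3e and Ly6g in 1 of IgG RIP. The part of these RNAs in the result for mitochondrial ribosomal proteins was not tested. In such bulk samples recovery by the antibody, the number of cells of a type and the RNA per cell cannot be told apart. The counts assigned to genes, as a share of the totals implied by the FPKM values, were also highest in CPEB4 RIP. They were 76.7% and 77.8% with the CPEB4 antibody, 63.4% and 74.6% with IgG and 64.2% and 69.0% in the input. IgG RIP and input overlapped. Which reads those totals include is stated in no source used here. The part of this share was not tested either.

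Some members share reads or positions with other genes. RefSeq places 25 of the 78 in overlap with another gene, judged by whole gene spans, introns included. Since it is not given whether counting used strand, reads of such pairs may be mixed where their exons overlap, which was not examined. Of the 53 members that overlap no other gene, 10 rose over IgG RIP (18.9%, against 4.79% of all genes) and 12 over input (22.6%, against 8%). The others of the 53 did not pass. Of the 24 tested members that overlap another gene, 2 rose over IgG RIP (8.33%) and 4 over input (16.7%). In each comparison 1 of these 24 fell (4.17%, against 3.42% and 4.7% of all genes). The counts of Mrpl23, Mrpl48 and Mrps36 are uncertain in another way, as each has a pseudogene in the table.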

How the data were processed

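The counts per gene are those the authors deposited, whole numbers without normalization. The FPKM values, also deposited by the authors, are scaled to gene model length and library reads. Per the submitters' processing notes, HISAT2, featureCounts and mm10 were used; versions, annotation, strand and the treatment of multiply mapped reads are stated in no source used here. Poly(A)-primed amplification and gene length can affect both units.

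Genes were tested on the counts of all 6 libraries with edgeR 4.0.16 (R 4.3.3): filterByExpr with a minimum count of 10 and total of 15, TMM scaling, a quasi-likelihood fit with group as the only term and 3 residual degrees of freedom, two-sided, with Benjamini-Hochberg adjustment over 18054 genes and a threshold of 0.05. In simulated data the fit recovered 20% of 2-fold and 69% of 4-fold changes over IgG RIP, and 36% and 78% over input. False calls were 2.2% and 5.79% of the calls in these comparisons. The simulation gave each gene the same spread in all groups, while the real IgG RIP libraries were less alike than the others. These rates therefore do not measure the false calls over IgG RIP in the data. CPM were scaled by TMM, and log2 CPM used a prior count of 2. SE is the log2 fold change over the root of F. Gene model lengths were solved from each count and FPKM value and came out whole for 100% of values within 0.0001 base. Library totals ranged from 9018323 to 20843042 counts, and n = 2 per group limits the precision of every value.

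The genes and lists were chosen with earlier results of these data known. Named were, per comparison, up to 8 members in each direction with the smallest p, the 5 highest and 3 lowest by input FPKM, those whose symbol and structure differ, and those past the test in both comparisons. Mrpl42, Mrpl55, Mrpl57, Mrps6, Mrps18c, Mrps28, Mrps33, Mrpl20 and Mrpl36, as members called in one comparison, were named after their values were seen where the rule did not take them. Lists are described by counts and medians, with no set test. Alternatives were DESeq2 1.42.0, limma 3.58.1 on FPKM, other scalings and filters, a length offset, a replicate block and the omission of each library.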

Additional observations from a re-analysis of the deposited data

How the results depend on the processing

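No called gene changed direction in any of the 17 settings run. Genes higher over IgG RIP, 12 as reported, numbered 19 with no filter on low counts (3.29% of all genes), 23 with DESeq2 (8.54%), 7 with only the 4 libraries compared (3.86%) and 0 with the length offset (0%). Genes higher over input, 16 as reported, numbered 9 with library size alone (6.05% of all genes), 25 with no filter (4.51%), 37 with only the 4 libraries (20.9%) and 3 with the length offset (2.93%). Genes lower numbered 0 over IgG RIP with the 4 libraries and with the length offset, and over input 0 with no filter, 3 with the 4 libraries and 0 with the length offset. For IgG RIP over input, DESeq2 gave 1 higher and 1 lower. The large minus small median over input, 0.07 as reported, was -0.0203 with the length offset and 0.0103 with the genes placed by structure. Leaving out each library gave 0 to 40 higher and 0 to 2 lower over IgG RIP, 0 to 45 higher and 0 to 1 lower over input, and 0 to 7 higher and 0 to 7 lower for IgG RIP over input. The share of all genes called higher then ranged from 0% to 23.6% over IgG RIP and from 0.439% to 20.2% over input, and for IgG RIP over input it was 11% higher and 20.9% lower in the fit with 7 members, or 9.09%, each way. The large minus small median then ranged from -0.20 to 0.0649 over IgG RIP, from -0.0218 to 0.0684 over input and from -0.0747 to 0.22 for IgG RIP over input. The median of all genes over input, -0.06 as reported, was -0.27 with library size alone and 0.11 with the length offset, where that of the members was 0.27 and 0.51. The causes were not tested. With the replicate number as a block, 16 genes were higher over IgG RIP (5.9% of all genes) and 20 over input (9.16%). The differences between the 2 libraries of a group had correlations of 0.133, -0.016 and 0.0697 over the 3 pairs of groups. The main fit used no pairing. Correlations over all genes cannot exclude that libraries of the same number shared a preparation. Over the calls of single genes, the number of settings that kept the call ran from 8 of 17 (Mrpl23 over input) to 16 of 17 (Mrpl52 over input). With 2 libraries a group, a gene that misses the threshold is not shown to be equal between groups.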

Other observations

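Pseudogenes of these proteins, left out above, also had counts. Mrpl23-ps1 had 271 and 563 counts with the CPEB4 antibody, 112 and 205 with IgG and 219 and 146 in the input. Mrpl48-ps had 17 to 53 counts per library, Mrps36-ps1 had 0 to 33, Mrps36-ps2 had 0 to 5, and Mrps36-ps3 had 0 in all 6 libraries.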
